A study of Homo sapiens with 12 samples.

Results

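Mitochondrial ribosomal protein genes were followed through cyclin D1 silencing in 2 mantle cell lymphoma lines. The members were all symbols made of MRPL or MRPS and a number, with an optional letter from A to C, that both deposited gene tables hold. This gave 76 genes, 47 of the large subunit (MRPL) and 29 of the small subunit (MRPS), of 23617 symbols in the Granta-519 table and 23615 in the JeKo-1 table. The pattern matched 82 rows in each table, and where MRPS18B stood on 7 rows the row with the highest mean was used. Mantle cell lymphoma is a B-cell lymphoma in which a translocation typically switches on CCND1, the gene of cyclin D1. The 4 groups were sequenced with 3 libraries each, which the submitters call biological replicates. They were Granta-519 with an shRNA against cyclin D1 (shCycD1), Granta-519 with a control shRNA (shCtrl), JeKo-1 with shCycD1 and JeKo-1 with shCtrl. All 12 cultures had received lentivirus and puromycin, so both arms of each comparison carry a vector. The sources used here give neither the number of hairpins, nor the time of collection, nor whether the libraries came from separate infections. The p-values therefore measure the spread between these libraries only.

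The mitochondrial ribosome translates the few proteins encoded by mitochondrial DNA, which are core subunits of the respiratory chain and of ATP synthase. Its RNA comes from mitochondrial DNA, but its proteins are made in the cytosol from nuclear genes and imported. Some have counterparts in bacterial ribosomes, and others are found only in mitochondria. Genes of this family are commonly described as targets of the transcription factors NRF1, GABP (an ETS family factor) and YY1, and of MYC.

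Levels are given as RPKM, a read number scaled to gene length and library size, after the deposited values had been taken out of what reads as a natural log of RPKM + 1. The targeted gene, CCND1, had 213, 298 and 292 RPKM in Granta-519 shCycD1 libraries, against 925, 1044 and 874 RPKM in shCtrl libraries. In JeKo-1 it had 65.4, 64.8 and 67.4 RPKM in shCycD1 libraries, against 395, 330.1 and 315 RPKM in shCtrl libraries. Across genes, Granta-519 libraries had r of 0.981 to 0.988 within a group and 0.955 to 0.962 between groups. For JeKo-1 these were 0.968 to 0.974 and 0.883 to 0.899. All 7 B-cell markers looked at, MS4A1, CD79A and PAX5 among them, averaged at least 1 RPKM in every group. In Granta-519 the 7 markers of T and NK cells together summed to at most 1.56 RPKM in any library. In JeKo-1 they summed to between 25.1 and 31.0 RPKM. There CD247 alone averaged 23.1 RPKM in the shCycD1 group and 27.2 RPKM in the shCtrl group. The 6 myeloid markers summed to 38.8 to 45.6 RPKM in Granta-519 shCycD1 libraries and 45.4 to 51.5 RPKM in shCtrl libraries, of which CSF1R averaged 41.9 and 46.8 RPKM, and to at most 2.39 RPKM in JeKo-1. Epithelial and fibroblast markers, 4 of each, summed to at most 6.84 and 11.6 RPKM in any library. The tables of the lines use different gene lengths, so these levels and sums are not comparable between the lines. A low Granta-519 sum does not show that a transcript is absent. Each library is a bulk of cultured cells, in which fewer cells with a transcript and less of it per cell cannot be told apart. Sequencing depth is unknown.

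All 76 genes could be tested in both lines. Each reached the filter of 1 RPKM in at least 3 of the 6 libraries of a line, in both lines, and none was listed at 0 in any library. In JeKo-1 the length behind the values is compatible with exons but not settled. Mean levels there ran from 9.56 to 291 RPKM with a median of 58.8 RPKM, against a median of 11.3 RPKM over all genes tested. MRPL51 was highest at 291 RPKM, MRPL20 had 197 RPKM and MRPS21 had 185 RPKM. The lowest means were those of MRPL19 at 9.56 RPKM and MRPL22, a protein that lines the exit tunnel for the growing chain, at 14.8 RPKM. In Granta-519 the values were divided by a length that includes introns, so short genes stand high and levels are not comparable between genes. On that scale MRPL51 (1064 RPKM), MRPL53 and MRPS34 headed the family, and MRPS28 (2.12 RPKM) and MRPL1 stood last. MRPL53 averaged 565 RPKM in Granta-519 shCycD1 libraries and 559 RPKM in shCtrl libraries, and MRPS34 averaged 427 RPKM in shCycD1 libraries and 522 RPKM in shCtrl libraries. Neither gene passed the test in either line.

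More of the family was called lower than higher after silencing in both lines on the RPKM scale, and with spike-in scaling, described further on, this turned round in Granta-519. Each gene was tested with limma on log2(RPKM + 0.5), and a gene was called at a Benjamini-Hochberg adjusted p under 0.05 over all genes tested. Fold changes on this scale understate the change of low genes. In JeKo-1, 38 of the 76 genes (50.0%) were called lower in shCycD1 libraries, where 27.8% of all 11866 genes tested were called lower. Another 5 were called higher, against 36.7% of all genes. In both directions together, 64.6% of all genes were called in JeKo-1. The remaining 33 members did not pass the test, with changes from -0.31 for MRPS36 to 0.33 for MRPS12. The median log2 change of the family in JeKo-1 was -0.24, beside 0.09 for all genes. In Granta-519, 13 genes were called lower, a share of 17.1% beside 18.2% of all 12668 genes tested, and 2 were called higher, beside 22.4% of all genes (40.6% in both directions together). The share called lower in Granta-519 was close to that of the background. The other 61 lay between -0.41 for MRPL22 and 0.25 for MRPL43. The median change in Granta-519 was -0.08, beside 0.03 for all genes. The difference between the lines in these counts and medians was not tested for the family as a whole, and the test gene by gene is given further on. The Granta-519 counts changed when single libraries were left out, which also leaves fewer libraries to test and so less power. All 15 called members kept their direction in each of these fits. The counts over all genes in the same fits are not given here. The 13 genes called lower became 7 without shCtrl replicate 1, 5 without shCycD1 replicate 1 and 5 without shCycD1 replicate 2. The 2 called higher became 1 without shCtrl replicate 3 or shCycD1 replicate 2, and 0 without shCtrl replicate 1, shCycD1 replicate 1 or shCycD1 replicate 3.

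**Figure D1:**
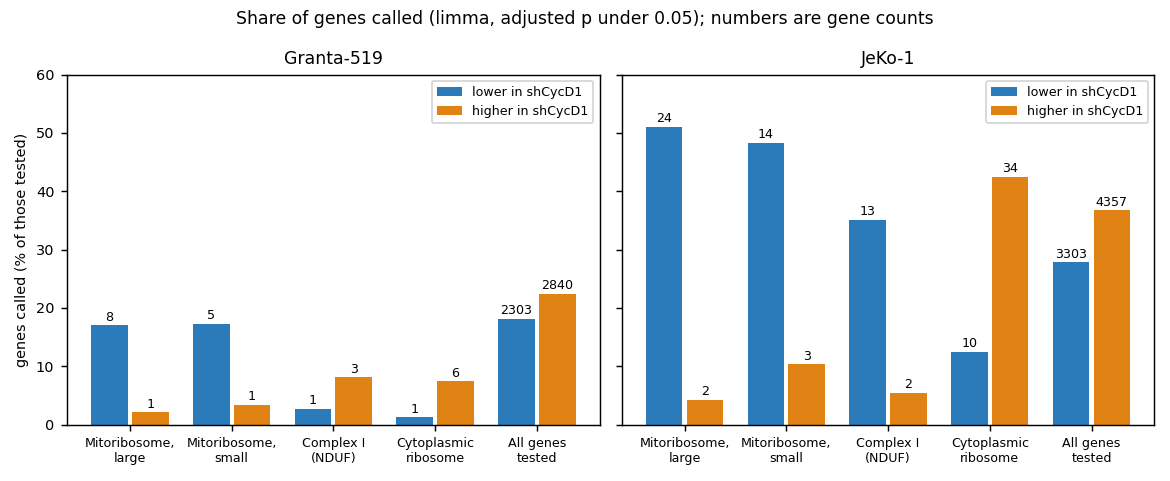
Share of genes called lower (blue) and higher (orange) in shCycD1 libraries, in percent of the genes tested, for the 2 mitochondrial ribosome subunits, complex I subunits, cytoplasmic ribosomal proteins and all genes, with the number of genes over each bar. In JeKo-1 both subunits of the mitochondrial ribosome have more genes called lower (24 and 14) than higher (2 and 3). In Granta-519 they have 8 and 5 called lower, none of which is called lower when values are scaled on spike-in RNAs.

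In Granta-519 these directions depend on how libraries are set on 1 scale, and in JeKo-1 the number of calls does. RPKM holds each library's total fixed. Scaling instead on 49 ERCC spike-in RNAs, synthetic transcripts present in both tables, gave a median change over all genes of 0.72 for Granta-519 and of -0.03 for JeKo-1. With that scaling 41 members were called higher and 0 lower in Granta-519, and 0 were called higher and 10 lower in JeKo-1. Those 10 were MRPL1, MRPL11, MRPL13, MRPL35, MRPL39, MRPL42, MRPL47, MRPS9, MRPS22 and MRPS28. All 43 members called in JeKo-1 on the RPKM scale kept their direction. The family's median became 0.64 in Granta-519, so that its sign turned, and -0.37 in JeKo-1. Relative to the median of all genes, the family's median was -0.11 in Granta-519 and -0.33 in JeKo-1 on the RPKM scale, and -0.08 and -0.34 on the spike-in scale. Statements on Granta-519 below are on the RPKM scale. Each member called lower there has a positive but uncalled value on the spike-in scale. The spike-in factor of Granta-519 shCtrl replicate 2 (0.83) stood apart from those of shCtrl replicates 1 and 3 (0.12 and 0.19). No spike-in fit was made without that library.

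The family's summed level per library was computed in each line. In JeKo-1 the 76 genes summed to 4532, 4819 and 4365 RPKM in shCycD1 libraries, against 5603, 5640.1 and 5144 RPKM in shCtrl libraries. The groups did not overlap on the RPKM scale. Sums were not computed on the spike-in scale, whose factors differ between these libraries. In Granta-519 the sums were 7587, 7082 and 7849 RPKM in shCycD1 libraries, against 7929, 8929.9 and 7386 RPKM in shCtrl libraries, and the groups overlapped. The Granta-519 sum adds levels that are not comparable between genes, and MRPL51 alone averaged 1064 of 7794 RPKM.

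**Figure D2:**
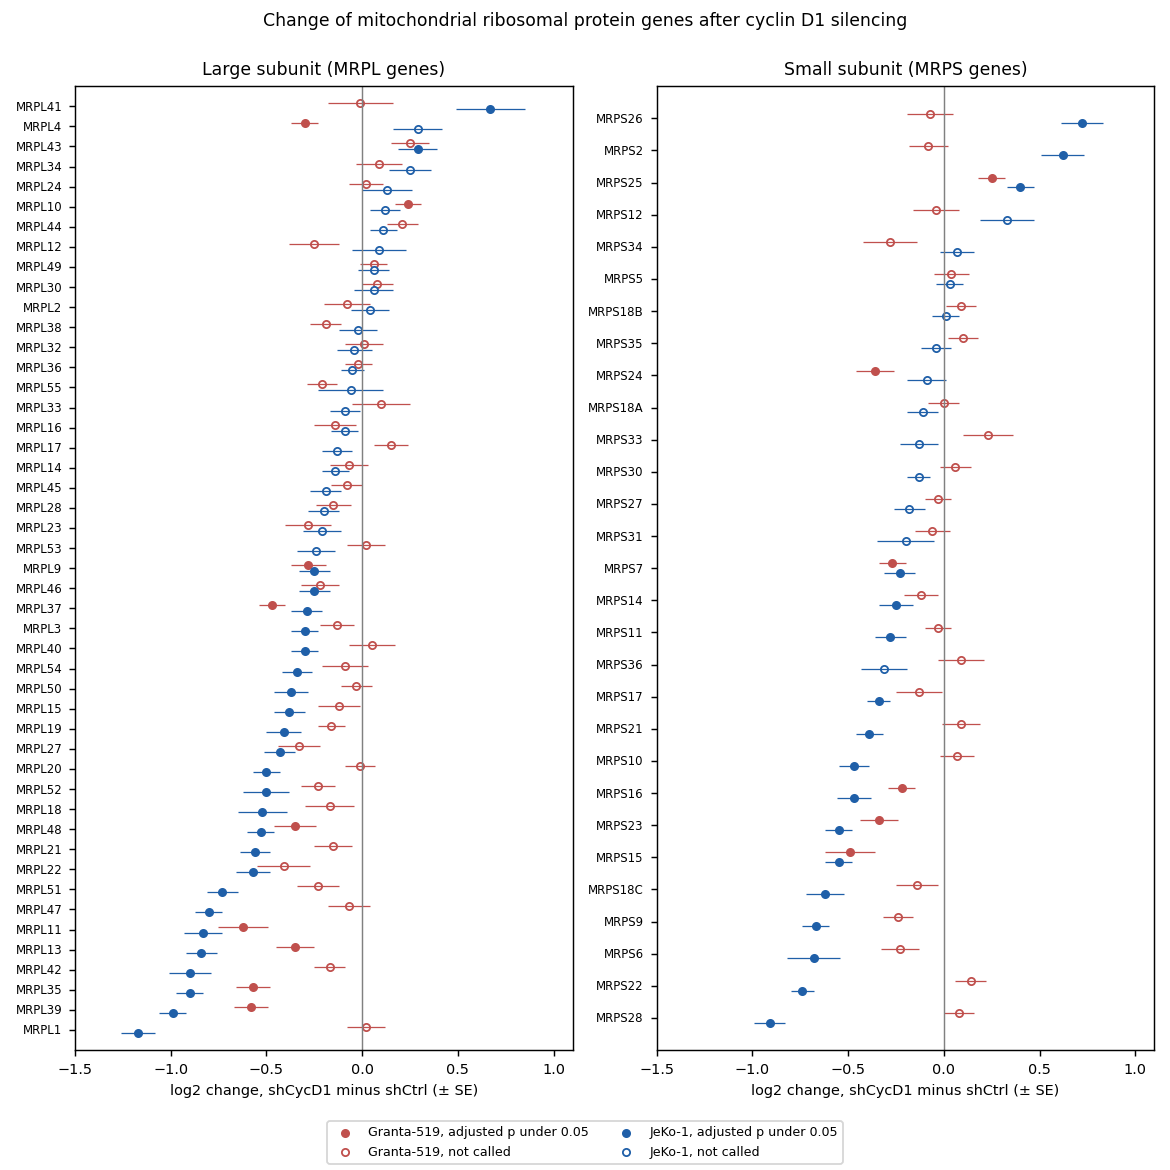
Log2 change (shCycD1 minus shCtrl, bars show ± SE) of each large-subunit gene (left) and small-subunit gene (right), ordered by the JeKo-1 change, in Granta-519 (red) and JeKo-1 (blue). Filled points have a limma adjusted p under 0.05. JeKo-1 changes run from -1.17 for MRPL1 to 0.72 for MRPS26 and Granta-519 changes from -0.62 to 0.25. All 13 Granta-519 genes called lower turn positive and uncalled with spike-in scaling, in which the factor of shCtrl replicate 2 stands apart.

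Among large-subunit genes, MRPL1 had the largest change in JeKo-1. Its bacterial homolog forms the mobile stalk by which deacylated tRNA leaves the ribosome. MRPL1 had 18.8, 21.7 and 19.5 RPKM in JeKo-1 shCycD1 libraries, against 43.9, 48.7 and 44.0 RPKM in shCtrl libraries. The groups lay far apart, with a log2 change of -1.17 ± 0.09 (SE, limma adjusted p = 3.22e-05). In Granta-519 MRPL1 had 2.38, 2.19 and 2.50 RPKM in shCycD1 libraries, against 2.17, 2.65 and 2.14 RPKM in shCtrl libraries, and the groups overlapped. MRPL11, which sits at the base of the stalk where translation factors bind, fell in both lines. It had 68.5, 66.2 and 70.9 RPKM in Granta-519 shCycD1 libraries, against 100.1, 129.3 and 90.6 RPKM in shCtrl libraries (log2 change -0.62 ± 0.13, limma adjusted p = 0.0096). In JeKo-1 MRPL11 had 36.1, 37.1 and 33.0 RPKM in shCycD1 libraries, against 69.5, 64.4 and 56.0 RPKM in shCtrl libraries (-0.83 ± 0.10, limma adjusted p = 0.000282). Every shCycD1 library lay below every shCtrl library in both lines. MRPL10, a protein of the same stalk, went the other way in Granta-519, with 103.7, 91.7 and 100.5 RPKM in shCycD1 libraries and 86.1, 84.0 and 80.1 RPKM in shCtrl libraries. Its change of 0.24 ± 0.07 (limma adjusted p = 0.0383) lost its call without any 1 of shCtrl replicates 1, 2 and 3 or shCycD1 replicates 1 and 3, and it was not called in JeKo-1 (0.12 ± 0.08).

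A group of large-subunit genes fell in both lines. MRPL39, a protein found only in mitochondrial ribosomes, averaged 10.6 ± 0.628 RPKM in Granta-519 shCycD1 libraries and 16.2 ± 1.37 RPKM in shCtrl libraries (SD, n = 3 each), a log2 change of -0.58 ± 0.09 (limma adjusted p = 0.00277). In JeKo-1 MRPL39 had 34.4, 34.3 and 37.2 RPKM in shCycD1 libraries, against 72.2, 69.4 and 70.0 RPKM in shCtrl libraries (-0.99 ± 0.07, limma adjusted p = 2.35e-05). The JeKo-1 groups lay far apart. MRPL35, the homolog of a small bacterial large-subunit protein, had 24.8, 24.6 and 28.0 RPKM in Granta-519 shCycD1 libraries, against 37.1, 36.3 and 42.1 RPKM in shCtrl libraries (-0.57 ± 0.09, limma adjusted p = 0.00313). In JeKo-1 it had 21.3, 22.6 and 21.6 RPKM in shCycD1 libraries, against 41.5, 42.1 and 39.7 RPKM in shCtrl libraries (-0.90 ± 0.07). MRPL37, also particular to mitochondria, had log2 changes of -0.47 in Granta-519 and -0.29 in JeKo-1, both called, and the JeKo-1 call was lost without shCtrl replicate 1 or shCycD1 replicate 3. MRPL13, which has a bacterial homolog, averaged 46.3 ± 3.63 RPKM in JeKo-1 shCycD1 libraries and 83.4 ± 3.26 RPKM in shCtrl libraries (-0.84 ± 0.08, limma adjusted p = 0.000103). In Granta-519 it averaged 5.59 ± 0.479 RPKM in shCycD1 libraries and 7.27 ± 0.635 RPKM in shCtrl libraries (-0.35 ± 0.10), a call lost without shCtrl replicate 1, 2 or 3 or shCycD1 replicate 2 or 3. MRPL48 was called lower in Granta-519 (-0.35) and JeKo-1 (-0.53), and its Granta-519 call was lost without shCtrl replicate 1 or 2 or any shCycD1 replicate. The calls of MRPL11, MRPL35, MRPL37 and MRPL39 in Granta-519 held without any 1 of the 6 libraries.

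**Figure D3:**
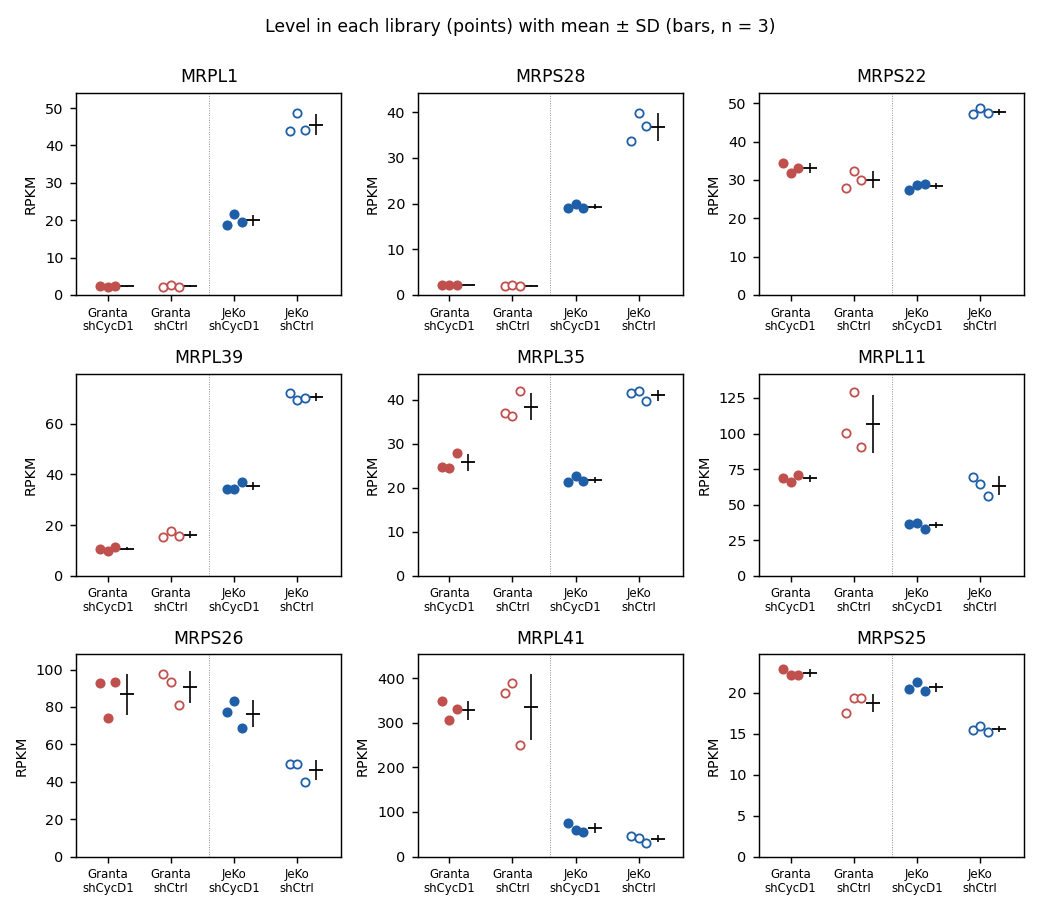
RPKM of 9 genes in each library (points) with mean ± SD (black bars, n = 3), shCycD1 (filled) left of shCtrl (open) for Granta-519 (red) and JeKo-1 (blue). Levels cannot be compared between the lines, because the tables use different gene lengths. MRPL1, MRPS28 and MRPS22 have separate groups in JeKo-1 and overlapping groups in Granta-519. MRPL39, MRPL35 and MRPL11 are lower in shCycD1 in both lines on the RPKM scale. In Granta-519 they are positive but uncalled with spike-in scaling.

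Other large-subunit genes were called lower in JeKo-1 and not in Granta-519, which alone is no difference between the lines. In the test of that difference, given further on, MRPL3, MRPL15, MRPL18, MRPL19, MRPL22, MRPL27, MRPL40, MRPL52 and MRPL54 did not pass. MRPL22 (-0.41) and MRPL27 (-0.33) only just missed the call in Granta-519. MRPL42, a mitochondria-specific protein, had 10.5, 11.4 and 10.0 RPKM in JeKo-1 shCycD1 libraries, against 17.7, 23.3 and 20.4 RPKM in shCtrl libraries (-0.90 ± 0.11, limma adjusted p = 0.000403). MRPL47, whose bacterial homolog lies near the mouth of the exit tunnel, had 42.2, 47.4 and 46.3 RPKM in shCycD1 libraries, against 79.1, 82.9 and 76.1 RPKM in shCtrl libraries (-0.80 ± 0.07, limma adjusted p = 9.56e-05). The most abundant members fell there too. MRPL51 had 209, 239 and 208 RPKM in JeKo-1 shCycD1 libraries, against 372, 370.1 and 347 RPKM in shCtrl libraries (-0.73 ± 0.08). MRPL20 averaged 162 ± 4.02 RPKM in shCycD1 libraries and 231 ± 14.6 RPKM in shCtrl libraries (-0.50 ± 0.07, limma adjusted p = 0.000585). Among the least abundant, MRPL22 fell by 0.57 and MRPL19 by 0.41, the call of MRPL19 being lost with the GC correction described further on (-0.15). MRPL3, MRPL15, MRPL18, MRPL21, MRPL27, MRPL40, MRPL50, MRPL52 and MRPL54 were called lower between -0.56 for MRPL21 and -0.30 for MRPL3 and MRPL40, and the call of MRPL50 was lost with the GC correction (-0.01).

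Only 2 large-subunit genes were called higher in JeKo-1, and both calls turn on the processing. MRPL41, a mitochondria-specific protein, had 75.3, 60.6 and 54.1 RPKM in shCycD1 libraries, against 46.8, 42.6 and 30.5 RPKM in shCtrl libraries (0.67 ± 0.18, limma adjusted p = 0.014). The groups did not overlap, although each was widely spread. MRPL43 averaged 59.4 ± 3.33 RPKM in shCycD1 libraries and 48.6 ± 5.20 RPKM in shCtrl libraries (0.29 ± 0.10, limma adjusted p = 0.031), a call lost without shCtrl replicate 3 or shCycD1 replicate 1 or 2. With the GC correction the values were -0.22 for MRPL41 and -0.06 for MRPL43, both uncalled.

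Small-subunit genes gave a like spread. MRPS28 had 19.0, 20.0 and 19.0 RPKM in JeKo-1 shCycD1 libraries, against 33.7, 39.8 and 36.9 RPKM in shCtrl libraries (-0.91 ± 0.08, limma adjusted p = 9.15e-05), and its Granta-519 groups, at 2.17, 2.21 and 2.21 RPKM in shCycD1 libraries and 1.94, 2.20 and 2.0 RPKM in shCtrl libraries, overlapped. MRPS22, a mitochondria-specific protein mutated in a form of human mitochondrial disease, had 27.5, 28.6 and 28.9 RPKM in JeKo-1 shCycD1 libraries, against 47.2, 48.7 and 47.4 RPKM in shCtrl libraries (-0.74 ± 0.06, limma adjusted p = 7.07e-05). In Granta-519 it averaged 33.1 ± 1.22 RPKM in shCycD1 libraries and 30.1 ± 2.12 RPKM in shCtrl libraries, and the groups overlapped. MRPS21, the homolog of a bacterial small-subunit protein and the most abundant small-subunit member of JeKo-1, averaged 160.2 ± 8.67 RPKM in shCycD1 libraries and 209.7 ± 9.30 RPKM in shCtrl libraries (-0.39 ± 0.07). MRPS6, MRPS9, MRPS10, MRPS14 and MRPS17, which all have bacterial homologs, were called lower between -0.68 for MRPS6 and -0.25 for MRPS14, and the call of MRPS14 was lost without any 1 of the 6 libraries.

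MRPS15, the homolog of a bacterial protein that binds the ribosomal RNA early in assembly, fell in both lines. It had 29.3, 26.8 and 30.6 RPKM in Granta-519 shCycD1 libraries, against 37.1, 49.5 and 37.1 RPKM in shCtrl libraries (-0.49 ± 0.13, limma adjusted p = 0.0204), a call lost without shCycD1 replicate 1 or 2. In JeKo-1 it had 76.0, 82.3 and 72.4 RPKM in shCycD1 libraries, against 116.7, 114.9 and 107.5 RPKM in shCtrl libraries (-0.55 ± 0.07). MRPS23, which is mitochondria-specific, was called lower in Granta-519 (-0.34) and JeKo-1 (-0.55), the Granta-519 call being lost without shCtrl replicate 2 or 3 or shCycD1 replicate 1 or 2. MRPL9, MRPS7 and MRPS16, also with bacterial homologs, were called lower in both lines, between -0.28 and -0.22 in Granta-519 and between -0.47 and -0.23 in JeKo-1. None of their Granta-519 calls held without shCtrl replicate 1 or shCycD1 replicate 1 or 2, and the JeKo-1 calls of MRPL9 and MRPS7 were lost without shCtrl replicate 1 or 2 or shCycD1 replicate 1 or 3. MRPS24, the counterpart of a bacterial protein, was called lower in Granta-519 only (-0.36 ± 0.10, limma adjusted p = 0.0293), a call lost without shCtrl replicate 1 or any 1 shCycD1 replicate. In JeKo-1 it averaged 113 ± 2.65 RPKM in shCycD1 libraries and 121 ± 15.2 RPKM in shCtrl libraries, and the difference between the lines did not pass (-0.28 ± 0.15, limma adjusted p = 0.156).

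MRPS25 was the 1 member called higher in both lines. It had 22.9, 22.1 and 22.2 RPKM in Granta-519 shCycD1 libraries, against 17.5, 19.4 and 19.4 RPKM in shCtrl libraries (0.25 ± 0.07, limma adjusted p = 0.0315). In JeKo-1 it had 20.5, 21.3 and 20.2 RPKM in shCycD1 libraries, against 15.5, 15.9 and 15.2 RPKM in shCtrl libraries (0.40 ± 0.07, limma adjusted p = 0.00198). The groups did not overlap in either line, but the Granta-519 call was lost without shCtrl replicate 1 or any 1 shCycD1 replicate. MRPS26, a mitochondria-specific protein, and MRPS2 rose in JeKo-1 only. MRPS26 had 77.2, 83.2 and 68.8 RPKM in JeKo-1 shCycD1 libraries, against 49.4, 49.4 and 40.0 RPKM in shCtrl libraries (0.72 ± 0.11, limma adjusted p = 0.00103). MRPS2, the homolog of a bacterial small-subunit protein, had 82.1, 73.6 and 73.3 RPKM in shCycD1 libraries, against 58.1, 46.5 and 44.3 RPKM in shCtrl libraries (0.62 ± 0.11, limma adjusted p = 0.00222). With the GC correction the JeKo-1 values were 0.37 for MRPS25, still called, and 0.17 for MRPS26 and 0.15 for MRPS2, both uncalled.

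The MRPS18 paralogs are 3 genes descended from 1 bacterial small-subunit protein, of which the product of MRPS18A has been placed in the large subunit by structural work. MRPS18C alone was called. It had 16.2, 20.1 and 18.3 RPKM in JeKo-1 shCycD1 libraries, against 27.8, 29.7 and 26.9 RPKM in shCtrl libraries (-0.62 ± 0.10, limma adjusted p = 0.00108). MRPS18A averaged 100.3 ± 5.67 RPKM in JeKo-1 shCycD1 libraries and 108 ± 8.67 RPKM in shCtrl libraries, and MRPS18B averaged 67.6 ± 4.04 RPKM in shCycD1 libraries and 67.0 ± 3.03 RPKM in shCtrl libraries. None was called in Granta-519, where the changes were 0.00 ± 0.08, 0.09 ± 0.08 and -0.14 ± 0.11 for MRPS18A, MRPS18B and MRPS18C.

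Large and small subunit gave near values in each line. In JeKo-1, 24 of 47 large-subunit genes were called lower and 2 higher with a median log2 change of -0.25, and 14 of 29 small-subunit genes were called lower and 3 higher with a median of -0.23. In Granta-519 the large subunit had 8 called lower and 1 higher (median -0.13), and the small subunit 5 called lower and 1 higher (median -0.04). With MRPS18A and MRPS30 counted in the large subunit and MRPS36 left out, as structures of the ribosome have it, the JeKo-1 medians were -0.24 and -0.24 and the Granta-519 medians -0.12 and -0.06. By descent, JeKo-1 had 14 of 29 large-subunit genes with a bacterial homolog called lower, and 10 of 18 mitochondria-specific ones. In the small subunit it was 11 of 15 genes with a bacterial homolog and 2 of 9 mitochondria-specific ones. These shares were 48.3% and 55.6% in the large subunit and 73.3% and 22.2% in the small one, so the order by descent was not the same. Over all genes tested, 27.8% were called lower in JeKo-1 and 18.2% in Granta-519. MRPS30 was counted in the large subunit here. MRPL55, MRPS18A, MRPS18B, MRPS28 and MRPS36 were left unclassified and out of these counts, and of them only MRPS28 was called lower in JeKo-1. MRPS18C was counted as having a bacterial homolog although its uncalled paralogs were not, which raises that share. Genes are not replicates of a condition, so these differences between groups of genes were not tested.

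Of the 13 genes called lower in Granta-519 (on the RPKM scale only), 11 (84.6%) were called lower in JeKo-1 too, which is 28.9% of the 38 called lower there. Over the 10653 genes tested in both lines, 1397 were called lower in both, which is 67.7% of those called lower in Granta-519 and 46.2% of those called lower in JeKo-1. Of the 2 called higher in Granta-519, 1 was called higher in JeKo-1. A further 27 were called lower in JeKo-1 without passing in Granta-519, and 30 were called in neither line. On the RPKM scale, with no block or correction, no member was called in opposite directions. With the replicate number as a block MRPL4 was. Its Granta-519 change was -0.30 (limma adjusted p = 0.042), against 0.29 for JeKo-1 (limma adjusted p = 0.00652). Quantile normalization also gave MRPL4 opposite calls, at -0.31 (limma adjusted p = 0.0123) against 0.41 (limma adjusted p = 0.0138). With the GC correction both MRPL4 changes were called lower, at -0.33 and -0.31. Spike-in scaling gave opposite calls for MRPL1, MRPL47, MRPS22 and MRPS28, each lower in JeKo-1 but higher in Granta-519. A joint fit of the 12 libraries tested whether the changes differ, as the Granta-519 change minus the JeKo-1 change. It called 19 of the 76 members, where 41.9% of all 10653 genes tested were called. A positive difference (less lowered or more raised in Granta-519) was called for 16 of the 76, a share close to the 19.3% of all genes. A negative one was called for 3 of the 76 (3.95%), beside 22.6% of all genes. MRPL1 had the largest difference at 1.19 ± 0.13 (limma adjusted p = 4.39e-05). MRPS28 followed at 0.99 ± 0.11 and MRPS22 at 0.88 ± 0.09 (limma adjusted p = 3.26e-05), then MRPL42 at 0.73 ± 0.14 and MRPL47 at 0.73 ± 0.14. MRPL1 and MRPS28 have the lowest Granta-519 values of the family, and values that low are compressed by the pseudocount. The negative differences were those of MRPS26 (-0.78 ± 0.17), MRPS2 (-0.70 ± 0.16) and MRPL4 (-0.59 ± 0.15), a large-subunit protein with a bacterial homolog. MRPL4 was called lower in Granta-519 (-0.30 ± 0.07, a call lost without shCtrl replicate 1 or shCycD1 replicate 1 or 3) and lay at 0.29 ± 0.13 in JeKo-1 without passing. The 3 negative differences became 5 without Granta-519 shCtrl replicate 3, and 0 with the GC correction. The correction gave 19 positive ones, of which 11 were among the 16, and it ended the calls of MRPL13, MRPL35, MRPL39, MRPL50 and MRPS18C. Quantile normalization gave 13 positive and 9 negative differences, and spike-in scaling 36 and 0.

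**Figure D4:**
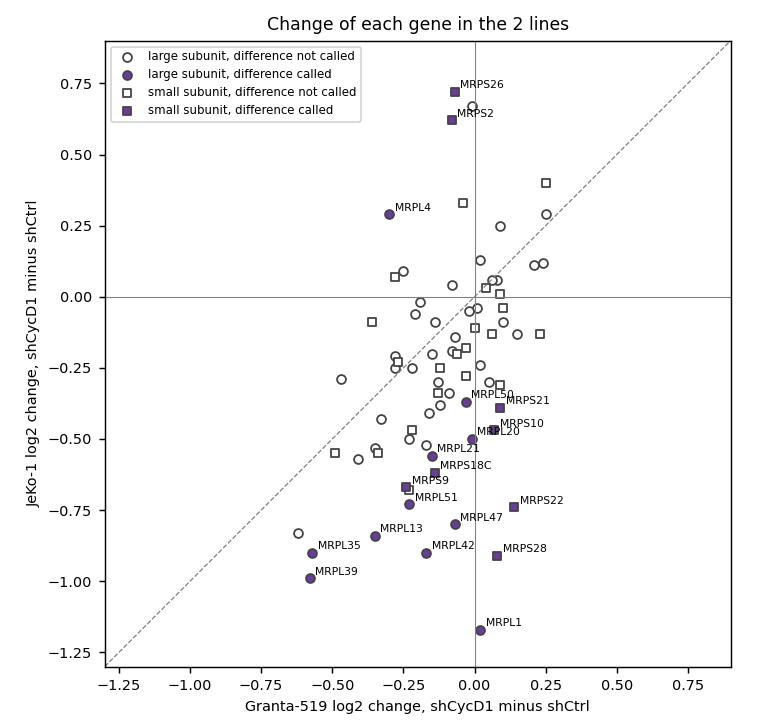
Log2 change of each gene (shCycD1 minus shCtrl) in Granta-519 (x axis) against JeKo-1 (y axis), for large-subunit genes (circles) and small-subunit genes (squares). Filled and named points are the 19 genes whose changes differ between the lines (limma adjusted p under 0.05). Of these, 16 lie below the dashed line of equal change, with MRPL1 at 0.02 and -1.17, and 3 lie above it. Spike-in scaling moves the x values up, and the 3 above the line then no longer pass.

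GC content of the transcript moved with the change in JeKo-1. Across the 76 members, GC content of the longest transcript and the JeKo-1 log2 change had Pearson r = 0.57 and Spearman rho = 0.54, beside 0.34 and 0.40 across 10887 tested genes with a GC value. In Granta-519 the values were -0.01 and -0.05 across the members, beside 0.02 and 0.03 across 11544 genes. These are correlations across genes that share the same libraries. Of the 19 members with the lowest GC content (33.5 to 41.6%), 14 were called lower in JeKo-1 with a median change of -0.47. Of the 19 with the highest (55.4 to 71.9%), 3 were called lower and 4 higher with a median of -0.02. Over all genes tested in JeKo-1, at any GC content, 27.8% were called lower and 36.7% higher. Shares of all genes within the same GC ranges are not given here. A correction that removed the trend with GC content over all genes gave medians of -0.31, -0.35, -0.44 and -0.49 over 4 groups of 19 members from the lowest to the highest GC content. With it 49 members were called lower in JeKo-1 and 4 higher, and the family median was -0.38. MRPL1, MRPL39, MRPS28, MRPL42, MRPL35, MRPL13, MRPL47 and MRPS22 were still called lower, at -0.93, -0.85, -0.80, -0.64, -0.68, -0.44, -0.54 and -0.54.

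**Figure D5:**
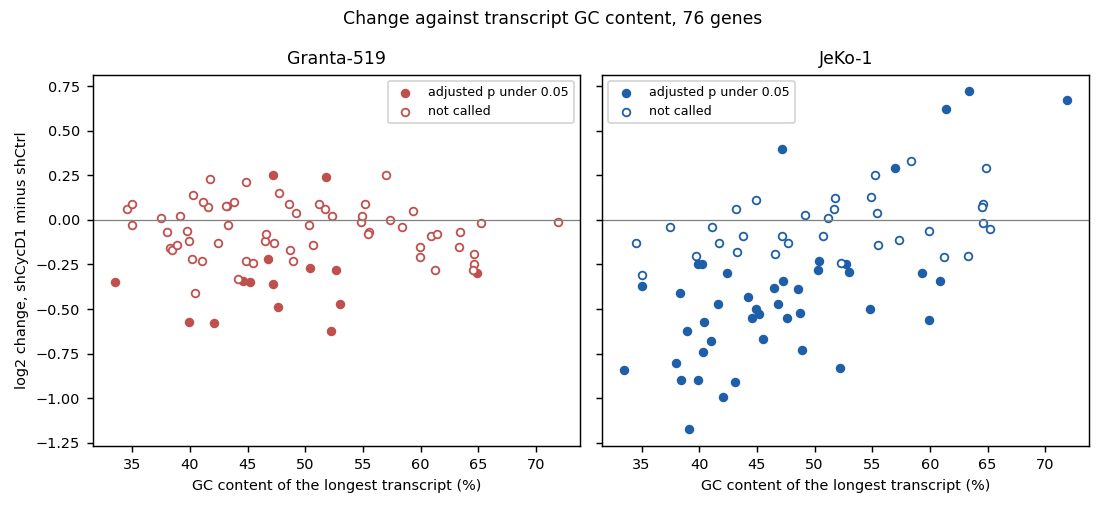
GC content of the longest transcript (x axis, percent) against the log2 change, shCycD1 minus shCtrl (y axis), for the 76 genes in Granta-519 (left) and JeKo-1 (right), with filled points called by limma. The JeKo-1 points climb with GC content (r = 0.57) and the Granta-519 points do not (r = -0.01). Granta-519 values move up with spike-in scaling, to a family median of 0.64.

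The members lie on 21 chromosomes, with 8 genes each on chromosomes 1 and 2 (GENCODE 29 annotation, build GRCh38). They stand head to head with another protein-coding gene, start sites on opposite strands within 1000 bases, in 16 of 76 cases (21.1%), against 7.38% of 19927 coding genes. MRPL46 and MRPS11 form such a pair with each other, and both were called lower in JeKo-1 (-0.25 ± 0.08 and -0.28 ± 0.08). The call of MRPL46 was lost without shCtrl replicate 1 or shCycD1 replicate 1 or 3 and with the GC correction (-0.05), and that of MRPS11 without shCtrl replicate 2 or shCycD1 replicate 3. MRPL47 faces NDUFB5 and MRPL36 faces NDUFS6, which are complex I genes. Further, 38 members overlap a coding gene, 26 of them on the opposite strand, and 33 have named pseudogenes. The library kit keeps strand, but the sources used here do not say whether counting used it, so reads of overlapping partners may not be told apart. MRPL51 overlaps the condensin gene NCAPD2, which had log2 changes of -0.93 in Granta-519 and -1.67 in JeKo-1. MRPL13 overlaps MTBP (-0.75 and -1.45), MRPL47 overlaps ACTL6A (-0.63 and -0.86), and MRPS16 overlaps the chaperone gene DNAJC9 on the same strand (-0.76 and -1.87). Other partners went the other way from a lowered member in JeKo-1, namely GGA3 beside MRPS7 (0.73), C22orf39 (0.59) and HIRA (0.35) beside MRPL40, and GCFC2 beside MRPL19 (0.36). In all, members called lower in JeKo-1 had 16 tested partners, of which 7 were called lower, 4 higher and 5 neither. Members not called there had 13, of which 3 were called lower, 6 higher and 4 neither, and PSMA2 fell by 0.79 beside an uncalled MRPL32. The part of these partners in the members' values was not tested. MRPL1, MRPL39, MRPL35, MRPL41 and MRPS26 overlap no coding gene.

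Promoter sequence was read for 67 members from RefSeq (GRCh38.p14), as the 250 bases before the start site. The ETS core CCGGAAG, on either strand, stood in 22 of the 67 (32.8%), against 8.82% of 27305 promoters and 17.3% of the 8445 that belong to tested genes. The NRF1 motif, GCGCA and GCGC with 1 base of any kind between them, stood in 7 (10.4%), against 5.53% and 11.4%. The YY1 letters AANATGGCG stood in 3 (4.48%) of these windows, and in 18 (26.9%) of windows of 300 bases that run on to 50 bases past the start, against 3.37% and 7.80%. In JeKo-1, 13 of the 22 members with the ETS core were called lower with a median change of -0.32, and 20 of the 45 without it with a median of -0.18. In Granta-519 it was 2 of 22 and 9 of 45. Over all genes tested, with the core or without it, 27.8% were called lower in JeKo-1 and 18.2% in Granta-519. The share called lower among all tested genes with the core is not given here, and the split was not tested. A match is a description of letters and not of a bound site. Shown here are the members with the largest decrease and the largest increase in JeKo-1, with the core (MRPL47 and MRPS26) and without it (MRPL1 and MRPL41). Capitals mark the ETS core or its reverse complement, 39 bases before the start in MRPL47 and 37 in MRPS26. MRPL47 lies at chr3:179604639-179604888 on the minus strand, MRPS26 at chr20:3045802-3046051 on the plus strand, MRPL1 at chr4:77862580-77862829 on the plus strand and MRPL41 at chr9:137551629-137551878 on the plus strand.
MRPL47: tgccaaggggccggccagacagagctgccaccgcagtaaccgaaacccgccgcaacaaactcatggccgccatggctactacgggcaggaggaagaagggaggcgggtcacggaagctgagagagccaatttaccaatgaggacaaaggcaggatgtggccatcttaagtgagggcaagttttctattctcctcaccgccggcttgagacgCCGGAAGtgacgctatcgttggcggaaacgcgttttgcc
MRPS26: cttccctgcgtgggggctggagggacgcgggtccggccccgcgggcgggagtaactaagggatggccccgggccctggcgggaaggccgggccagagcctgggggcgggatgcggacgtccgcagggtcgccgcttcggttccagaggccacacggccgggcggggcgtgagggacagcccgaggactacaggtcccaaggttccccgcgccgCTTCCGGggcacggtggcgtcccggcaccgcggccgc
MRPL1: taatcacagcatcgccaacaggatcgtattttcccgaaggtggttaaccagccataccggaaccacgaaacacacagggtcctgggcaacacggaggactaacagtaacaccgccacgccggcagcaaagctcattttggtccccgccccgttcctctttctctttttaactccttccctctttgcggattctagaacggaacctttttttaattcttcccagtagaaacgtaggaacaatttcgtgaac
MRPL41: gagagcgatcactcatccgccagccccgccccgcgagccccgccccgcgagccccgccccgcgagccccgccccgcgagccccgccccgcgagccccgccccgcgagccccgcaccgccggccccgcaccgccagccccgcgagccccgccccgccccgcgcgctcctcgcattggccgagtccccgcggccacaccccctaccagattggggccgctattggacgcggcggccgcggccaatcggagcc
Choosing the largest decrease and the largest increase fixed the opposite directions in JeKo-1 beforehand, so they say nothing on the core. With the core MRPL47 was at -0.80 and MRPS26 at 0.72, and without it MRPL1 was at -1.17 and MRPL41 at 0.67. With the GC correction MRPS26 (0.17) and MRPL41 (-0.22) were not called in JeKo-1.

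Subunits of the mitochondrial ribosome with other names did not follow 1 direction. Of 7 such genes, 2 were called lower and 2 higher in JeKo-1, and 1 and 1 in Granta-519. Over all genes tested, 27.8% were called lower and 36.7% higher in JeKo-1, and 18.2% and 22.4% in Granta-519. These are the shares to set beside the counts of each list below. ICT1, a ribosome-bound hydrolase that rescues stalled ribosomes, averaged 24.8 ± 1.40 RPKM in JeKo-1 shCycD1 libraries and 51.5 ± 3.74 RPKM in shCtrl libraries (-1.04 ± 0.08), and it fell by 0.61 in Granta-519, where spike-in scaling gave 0.11. PTCD3, a small-subunit protein that binds RNA, was called higher in Granta-519 (0.32) and JeKo-1 (0.55), the Granta-519 call being lost without shCtrl replicate 1 or 2 or shCycD1 replicate 2 or 3. Of assembly factors, 8 of 22 were called higher and 7 lower in JeKo-1, and 6 of 21 higher and 5 lower in Granta-519. Their shares called lower, 31.8% in JeKo-1 and 23.8% in Granta-519, lay near those of all genes. NGRN, needed for the large ribosomal RNA, averaged 133.6 ± 6.16 RPKM in JeKo-1 shCycD1 libraries and 79.5 ± 1.40 RPKM in shCtrl libraries (0.75 ± 0.06), and rose by 0.67 in Granta-519. METTL17, a factor of small-subunit assembly, was at -0.57 in Granta-519 (0.17 with spike-in scaling) and -0.69 in JeKo-1, and GTPBP5, a GTPase of large-subunit assembly, at 0.51 and 0.59, all called.

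Of 16 translation factors, 6 were called lower and 2 higher in JeKo-1, and 1 and 1 in Granta-519. That is 37.5% called lower in JeKo-1 and 6.25% in Granta-519, beside 27.8% and 18.2% of all genes. GFM1, the elongation factor that moves the ribosome along the message, averaged 11.6 ± 1.65 RPKM in JeKo-1 shCycD1 libraries and 26.8 ± 1.95 RPKM in shCtrl libraries (-1.17 ± 0.12, limma adjusted p = 0.000135). SLIRP, which stabilises mitochondrial messages, averaged 198 ± 22.0 RPKM in shCycD1 libraries and 365 ± 19.9 RPKM in shCtrl libraries (-0.88 ± 0.09), and C12orf65, a release factor, rose by 0.70. Of the mitochondrial tRNA synthetases, 6 of 17 were called lower and 6 higher in JeKo-1, and 2 of 16 lower and 1 higher in Granta-519. Lower calls made up 35.3% in JeKo-1 and 12.5% in Granta-519, beside the same shares of all genes. HARS2, the histidyl enzyme, was called higher in both lines (0.31 and 0.79), the Granta-519 call being lost without shCtrl replicate 1 or shCycD1 replicate 1 or 3. Its JeKo-1 call was lost with spike-in scaling. RARS2 was called lower in JeKo-1 (-0.85) and not in Granta-519 (0.08). EARS2 was called lower in Granta-519 (-0.37, or 0.36 with spike-in scaling) and JeKo-1 (-0.37). Its Granta-519 call was lost without shCtrl replicate 1 or 3 or shCycD1 replicate 1 or 2, and its JeKo-1 call with spike-in scaling.

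Regulators of mitochondrial biogenesis also split. In JeKo-1, 7 of 13 were called lower and 3 higher, and in Granta-519 2 of 12 were called lower and 2 higher. The shares called lower were 53.8% in JeKo-1 and 16.7% in Granta-519, beside 27.8% and 18.2% of all genes. NRF1 averaged 6.45 ± 1.12 RPKM in JeKo-1 shCycD1 libraries and 12.3 ± 1.14 RPKM in shCtrl libraries (-0.89 ± 0.13), and was at -0.41 ± 0.09 in Granta-519, or 0.18 with spike-in scaling. GABPB1, a subunit of GABP, averaged 12.7 ± 1.84 RPKM in JeKo-1 shCycD1 libraries and 25.3 ± 1.89 RPKM in shCtrl libraries (-0.98 ± 0.12, limma adjusted p = 0.000362). ESRRA, a nuclear receptor of mitochondrial genes, was called higher in JeKo-1 (0.88) and Granta-519 (0.40), calls that were lost with the GC correction in JeKo-1 (0.35) and without shCtrl replicate 1 or shCycD1 replicate 1 or 3 in Granta-519. MYC averaged 445 ± 100.3 RPKM in JeKo-1 shCycD1 libraries and 187 ± 59.5 RPKM in shCtrl libraries (1.27 ± 0.25, limma adjusted p = 0.00314). The cytoplasmic ribosomal proteins had 34 of 80 genes called higher and 10 lower in JeKo-1 (median 0.18), and 6 of 81 higher and 1 lower in Granta-519 (median 0.12). Over all genes, 36.7% were called higher in JeKo-1 and 22.4% in Granta-519. The mitochondrial ribosome makes some, not all, of the core subunits of complex I. The NDUF genes of complex I had 13 of 37 called lower and 2 higher in JeKo-1 (median -0.21), and 1 lower and 3 higher in Granta-519 (median 0.01). Their shares called lower were 35.1% in JeKo-1 and 2.7% in Granta-519, beside 27.8% and 18.2% of all genes. Differences between these lists and the mitochondrial ribosomal proteins were not tested.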

How the data were processed

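RNA-seq of 12 libraries was analysed from 1 deposited gene table per line. Per the submitters' processing notes, FastQC, TopHat2 2.1.1, limma 3.9 and the builds GRCh37 and hg19 were used, with no role or order given. Counter, annotation and strand setting: not given in the sources used here. Depth is unknown.

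The deposited files are titled RPKM. The authors' values were read as a natural log of RPKM + 1 and were taken out of that log before testing, where linear RPKM had been planned for. In Granta-519, low values times the genomic span were whole multiples of 1 step in 70.9 to 77.0% of cases with the natural log (tolerance 0.1), and in 42.9 to 48.7% with log2. In JeKo-1 this check settled neither length nor base. Whole multiples made up 32.6 to 35.8% with transcript length and the natural log, and 25.7 to 34.9% with transcript length and log2. With genomic span and the natural log they made up 25.0 to 31.0%. The JeKo-1 base is inferred from the spread of spike-in values, whose SD ratio to Granta-519 was 0.97 with the natural log and 0.70 with log2. Granta-519 values appear divided by genomic span and JeKo-1 values by a shorter length. Split into 8 groups by intron content, genes had median log2 ratios between the tables of 1.60 to -1.26, and levels were therefore never set against each other across tables.

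Each line was fitted with limma 3.58.1 (R 4.3.3; moderated variances with an intensity trend) on log2(RPKM + 0.5). Genes needed at least 1 RPKM in 3 of the 6 libraries. A joint fit gave the difference between the lines. The steps were tested on simulated data. The members and the gene lists were chosen with earlier results of these data known. Genes named with values are, per line, the 6 called members with the largest change in each direction, members called in both lines (up to 8), the 6 with the largest called difference, the 3 highest and 2 lowest in level, the MRPS18 paralogs, and from each list the 2 called genes with the largest change in each direction; not every gene this picks is reported here. Further members are named beside counts and features, chosen after their values were seen. GC content came from the longest GENCODE 29 transcript. Alternatives were a pseudocount of 1, no filter, quantile normalization, spike-in scaling, a replicate block, a GC correction, JeKo-1 read as log2, symbols on 1 row only, and leaving out each library.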

Additional observations from a re-analysis of the deposited data

Results flagged for a closer look

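The 19 members below were marked because their change differed between Granta-519 and JeKo-1 in a test of the difference itself (limma, joint fit of 12 libraries, adjusted p under 0.05), and 41.9% of all genes tested met the same mark. The differences are Granta-519 minus JeKo-1 on the log2 scale. They were 1.19 for MRPL1, 0.99 for MRPS28, 0.88 for MRPS22, 0.73 for MRPL47, 0.73 for MRPL42, 0.54 for MRPS10, 0.51 for MRPL51, 0.49 for MRPL20 and 0.49 for MRPL13. Further positive differences were 0.48 for MRPS18C, 0.48 for MRPS21, 0.44 for MRPS9, 0.41 for MRPL21, 0.41 for MRPL39, 0.34 for MRPL50 and 0.33 for MRPL35. Negative differences were -0.59 for MRPL4, -0.70 for MRPS2 and -0.78 for MRPS26. Without 1 library at a time, MRPL50 lost its call in 9 of 12 cases, MRPL35 in 7, and MRPL21 and MRPS18C in 6 each. The GC correction ended 8 of the 19 calls, those of MRPL13, MRPL35, MRPL39, MRPL50, MRPS18C and the 3 negative differences. With JeKo-1 read as log2, 7 ended (MRPL13, MRPL21, MRPL35, MRPL39, MRPL50, MRPL51 and MRPS18C), and with quantile normalization 5 (MRPL13, MRPL21, MRPL39, MRPL50 and MRPS21). Spike-in scaling ended the 3 negative ones.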

How the results depend on the processing

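A pseudocount of 1, no low-value filter and symbols on 1 row only left every family count within 1.5 times its value. The cause of the changes below was not tested. Spike-in scaling had log2 factors of -0.48, -0.23 and -0.40 in Granta-519 shCycD1 libraries and 0.12, 0.83 and 0.19 in shCtrl libraries, where shCtrl replicate 2 stood apart. In JeKo-1 it had factors of -0.29, 0.02 and 0.45 in shCycD1 libraries and -0.34, -0.07 and 0.22 in shCtrl libraries. It gave 41 members higher and 0 lower in Granta-519 (medians 0.64, large 0.61, small 0.69), 0 higher and 10 lower in JeKo-1 (medians -0.37, large -0.37, small -0.35), and 36 positive and 0 negative differences. Over all genes it called 7362 higher and 161 lower in Granta-519, against 2840 and 2303, and 1688 higher and 1734 lower in JeKo-1, against 4357 and 3303. For differences over all genes it gave 3872 positive and 143 negative, against 2053 and 2410. With it Granta-519 values turned positive and uncalled for MRPL11 (0.13), MRPL13 (0.34), MRPL35 (0.17), MRPL37 (0.27), MRPL39 (0.14), MRPL4 (0.44), MRPL48 (0.31), MRPL9 (0.47), MRPS15 (0.25), MRPS16 (0.53), MRPS23 (0.40), MRPS24 (0.38) and MRPS7 (0.47). The same held for EARS2 (0.36), ICT1 (0.11), METTL17 (0.17), MTRF1 (0.16), NRF1 (0.18), RBFA (0.37) and TFAM (0.56). Differences turned for MRPL4 (0.28), MRPS2 (0.17), MRPS26 (0.09), AARS2 (0.06), C12orf65 (0.05), ESRRA (0.39), HARS2 (0.39) and RBFA (0.29). It also ended the JeKo-1 calls of PTCD3, NGRN, GTPBP5, C12orf65, HARS2 and ESRRA.

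Quantile normalization gave 1 member higher in Granta-519, a large-subunit median of -0.19 in JeKo-1 and 9 negative differences. The GC correction gave 1 higher in Granta-519, JeKo-1 medians of -0.38 (large -0.44) and 0 negative differences (1545 over all genes, against 2410). It turned MRPL41 (-0.22), MRPL43 (-0.06) and GADD45GIP1 (-0.08) in JeKo-1 and the differences of MRPL50 (-0.02) and ESRRA (0.03). With JeKo-1 read as log2, medians were -0.17 (large -0.18), 9 differences were positive and 4 negative, and the CCND1 difference was -0.16. In Granta-519, calls ended for MRPL48 and MRPS25 with quantile normalization, for MRPL48, MRPL9 and MRPS23 with no filter, and for MRPL10 and MRPL13 with the GC correction. In JeKo-1 they ended for MRPL3, MRPL54, MRPL9 and MRPS7 with quantile normalization and for MRPS14 and MRPS7 with no filter. Leaving out 1 library at a time gave 5 to 11 members lower and 0 to 3 higher in Granta-519 (median -0.14 to -0.04), 32 to 40 lower and 4 to 7 higher in JeKo-1 (median -0.29 to -0.21), and 12 to 23 positive and 3 to 5 negative differences.

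With the replicate number as a block, 5 members were lower and 0 higher in Granta-519, and 45 lower and 8 higher in JeKo-1, with 16 positive and 4 negative differences. Same-numbered libraries had correlated deviations of 0.01, -0.12 and 0.03 in Granta-519 and of 0.19, 0.09 and 0.10 in JeKo-1. The numbers were not taken to pair the samples, though in JeKo-1 each library correlated best with its own number, a hint from the data and not the design.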
